A study of Mus musculus with 4 samples.

Results

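Histones are the proteins around which DNA is wound in chromatin, and the mouse genes for them were examined in lenses of Celf1 conditional knockout (cKO) and Control mice. Members were the array probes whose gene symbol in the deposited normalized table begins with Hist1, Hist2, Hist3, Hist4, H2af or H3f3, or is H1f0 or H1fx. This gave 107 of 45263 probes, for 70 of 28850 genes. Of these genes, 56 (86 probes) were counted as replication-dependent histones, 11 (18 probes) as replacement histones and 3 (3 probes) as testis histones.

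H2A, H2B, H3 and H4 are the core histones that form the nucleosome, and H1 is the linker histone that sits on the DNA between nucleosomes. Replication-dependent histone genes lack introns, lie in clusters and are mainly transcribed in S phase, when new DNA has to be packaged. Most of their mRNAs end in a stem-loop in place of a poly(A) tail, and the stem-loop-binding protein governs their processing and decay. Replacement histones are encoded by single genes outside the clusters, have polyadenylated mRNAs and are made throughout the cell cycle and in cells that no longer divide. In the lens, epithelial cells at the front divide, whereas fiber cells leave the cell cycle, accumulate crystallins and finally degrade their nuclei.

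Both groups were lenses at postnatal day 6 (P6) of mixed C57BL/6 and FVB background, with RNA of 1 lens on each Illumina MouseWG-6 v2.0 array. The Celf1 cKO lenses (n = 2, A and B) carried a Celf1 lacZ knock-in allele over a floxed allele, whose exon 5 is removed by the Pax6GFPCre transgene, which is active in the lens from the placode stage and also in the pancreatic lineage. The Control lenses (n = 2, A and B) carried the same knock-in allele over a wild-type allele, so that both groups lacked 1 intact copy of Celf1, the gene of an RNA-binding protein. Whether the Control mice carried Cre, and the sex of the mice, are not given in the sources used here. Celf1 was lower in both cKO lenses (log2 signal of 7.45 and 6.95, against 8.71 and 8.55 in Control) (-1.43 ± 0.19 on the log2 scale, SE, limma adjusted p = 0.0098). Xist was detected in both cKO lenses and in no Control lens, and the Y-linked Ddx3y, detected on all 4 arrays, read 6.81 and 4.83 in cKO A and B against 8.99 and 8.82 in Control, so that genotype and sex-linked transcripts varied together and cannot be told apart. Both cKO arrays were also brighter, with 16261 and 16925 probes detected against 14542 and 14180, and the effect of brightness cannot be told apart from that of genotype either. The crystallin Cryaa and 5 further markers of lens fiber were detected on all 4 arrays, whereas 0 of 5 retina markers and 0 of 4 muscle markers were detected.

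Several results below turn on which stretch of a histone mRNA a probe covers, so the probes concerned are shown first, 5′ to 3′, as the deposited table gives them. Each was 50 bases long, and its position is the first base of the probe in its transcript. The first set covers the start of the H2A coding sequence, and capitals mark bases that differ from the Hist2h2aa2 probe where the probes align.
Hist2h2aa2, probe at base 2: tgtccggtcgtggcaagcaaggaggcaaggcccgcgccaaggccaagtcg
Hist2h2ac, probe at base 1: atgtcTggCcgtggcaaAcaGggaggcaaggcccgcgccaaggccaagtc
Hist1h2ad, probe at base 3: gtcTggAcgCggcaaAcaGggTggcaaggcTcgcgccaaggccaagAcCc
Hist1h2ah, probe at base 1: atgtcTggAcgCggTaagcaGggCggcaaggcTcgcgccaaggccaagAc
Hist1h2ak, probe at base 1: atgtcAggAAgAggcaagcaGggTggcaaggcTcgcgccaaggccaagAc
The Hist2h2ac probe differed from the Hist2h2aa2 probe at 4 of 49 aligned bases, and the probes of the Hist1 cluster differed from it at 8 or 9 of 49.

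The second set covers the start of H2B, where probes of 4 genes are almost the same, and capitals mark bases that differ from the Hist1h2bf probe.
Hist1h2bf, probe at base 15: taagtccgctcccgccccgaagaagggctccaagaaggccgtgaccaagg
Hist1h2bh, probe at base 16: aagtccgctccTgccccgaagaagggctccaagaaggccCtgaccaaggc
Hist1h2bk, probe at base 25: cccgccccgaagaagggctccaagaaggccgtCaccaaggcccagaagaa
Hist1h2bn, probe at base 1: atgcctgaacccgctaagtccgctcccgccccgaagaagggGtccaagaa
The third set holds H4 probes that share an exact stretch of 48 or 47 bases with the first of them, so that none of the aligned bases is in capitals.
Hist1h4k, probe at base 45: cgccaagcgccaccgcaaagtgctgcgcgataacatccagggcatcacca
Hist1h4k, probe at base 47: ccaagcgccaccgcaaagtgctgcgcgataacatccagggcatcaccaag
Hist1h4m, probe at base 42: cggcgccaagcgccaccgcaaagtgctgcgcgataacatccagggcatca
Among the 107 member probes, 38 shared at least 30 matching bases, at an identity of at least 90%, with another member probe, and they fell into 9 groups of such probes. Transcripts of near-identical genes can bind the same probe, so a value of any of these 38 probes cannot be assigned with certainty to the 1 gene it is named after. The probes were compared only with each other and not with transcripts. The remaining probes are therefore not shown to be specific to the gene they are named after.

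Most histone probes gave signal above background. Of the 107 probes, 83 (77.6%) had a detection p-value under 0.05 on at least 2 of the 4 arrays, against 35.9% of all probes. The share was 66 of 86 for replication-dependent histones and 17 of 18 for replacement histones, and it was 0 of 3 for the testis histones Hist1h1t, Hist1h2aa and Hist1h2ba. Within the replication-dependent class, 22 of 23 H2A probes and 17 of 19 H2B probes were detected, compared with 3 of 6 for H1, 11 of 18 for H3 and 13 of 20 for H4. By array, 82 and 84 member probes were detected in the cKO lenses and 74 and 71 in the Control lenses, in the same order as the brightness of the arrays. Detection on both cKO arrays and no Control array was found for 8 member probes, and the opposite for 0, against 1276 and 160 of all probes. The 14 genes without a detected probe were H2afy3, Hist1h1a, Hist1h1d, Hist1h1e, Hist1h2ac, Hist2h2bb, Hist1h3c, Hist1h3g, Hist1h4b, Hist2h4, Hist4h4 and the 3 testis genes, and the deposited normalized intensity of their probes lay between -14.2 and 21.

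The comparison of cKO with Control asked how the transcripts of both classes stood in the lens with reduced Celf1. A gene was called when its limma adjusted p was under 0.05, its log2 fold change exceeded 0.58 in size and its mean log2 signal exceeded 4.6. Among the 56 histone genes tested, 9 were elevated in cKO and 0 were reduced, where 11.6% of all 11516 genes were called, 6.01% as elevated and 5.64% as reduced. The called genes were 8 of 46 replication-dependent histones, namely Hist2h2aa2, Hist2h2aa1, Hist1h4h, Hist1h1c, Hist1h4a, Hist1h3e, Hist1h2bf and Hist1h2bc, and 1 of 10 replacement histones, H3f3a, whose call rested on a probe below background in Control. At an unadjusted limma p under 0.05, 25 of 56 histone genes were higher in cKO and 4 were lower, against 16.9% and 15% of all genes. The 25 include Hist1h2bg, which was detected in neither Control lens. The number called fell to 4 without cKO A, to 0 without cKO B, to 7 without Control A and to 0 without Control B, where 5.6%, 1.56%, 12.2% and 1.52% of all genes were called and 23 of 53, 10 of 52, 25 of 55 and 28 of 56 histone genes had an unadjusted limma p under 0.05, against 22.4%, 16.9%, 35.9% and 27% of all genes. With each probe tested alone in limma, 14 of 83 histone probes were elevated and 1 was reduced (11.5% of all probes called, 6.04% elevated and 5.5% reduced).

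**Figure D1:**
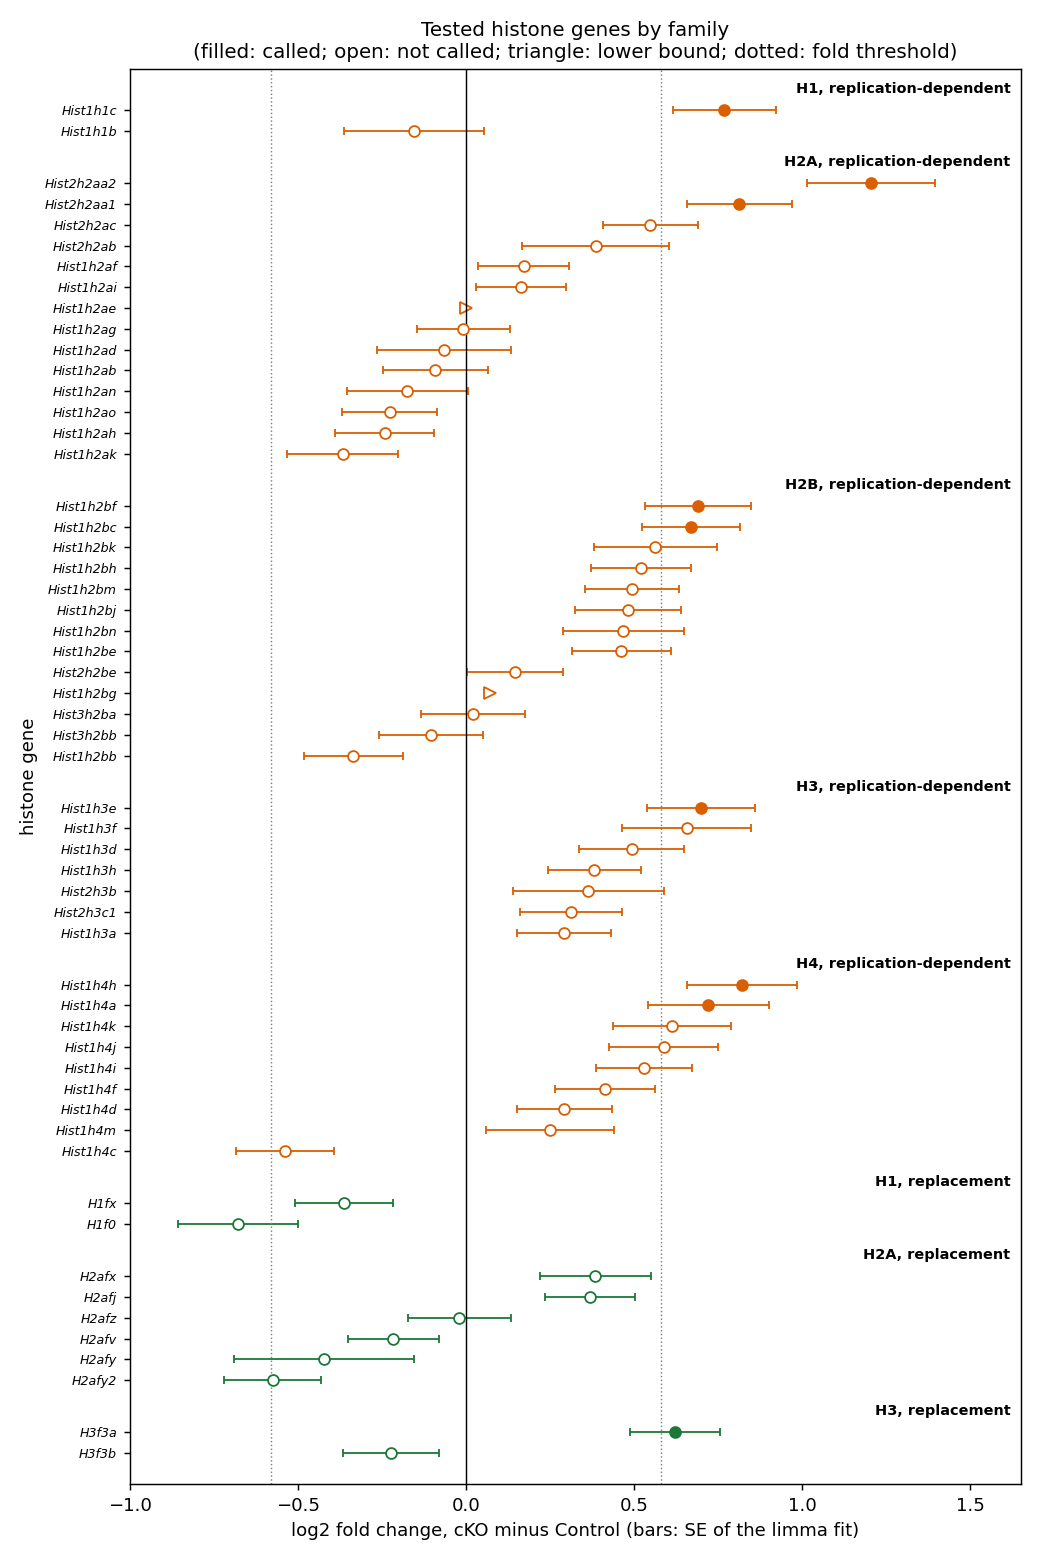
Log2 fold change (cKO minus Control) of 55 of the 56 tested histone genes with the SE of the limma fit, by family, with replication-dependent genes in orange and replacement genes in green. Filled points are the 9 called genes, dotted lines mark 0.58 in either direction, triangles are lower bounds for Hist1h2ae and Hist1h2bg, detected in neither Control lens, and Hist3h2a, which has no bound above 0, is not drawn. All 7 replication-dependent H3 genes and 8 of 9 H4 genes lie above 0, whereas the replication-dependent H2A genes spread from -0.37 to 1.21.

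Replication-dependent histones had a median log2 fold change of 0.38, compared with 0.01 over all genes tested, and 35 of 46 were higher in cKO. The cKO and Control values did not overlap for 36 of them, 31 of these with cKO higher, where 62.3% of all genes had groups that did not overlap and 32.6% did so with cKO higher. The 31 include Hist1h2ae, Hist1h2bg and Hist3h2a, which were detected in neither Control lens and entered the fit through the cKO arrays. By family, the median log2 fold change was 0.48 for H2B (11 of 13 higher), 0.38 for H3 (7 of 7) and 0.53 for H4 (8 of 9), but 0.16 for H2A (8 of 15). With genes and probes detected in neither Control lens set to their bounds, or to 0 where the bound gave no increase, the medians were 0.34 for the class, 0.47 for H2B, 0.38 for H3, 0.53 for H4 and 0 for H2A (7 of 15 higher). The medians of H2B, H3 and H4 in the fit stayed above 0 under every scaling of the arrays that was tried, whereas that of H2A was -0.04 when arrays were set to the same median over detected probes, a scaling that moved the median of all genes to -0.19.

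The tested linker histones of the replication-dependent class were Hist1h1c and Hist1h1b. Hist1h1c (H1f2), which encodes the linker histone H1.2, had a log2 signal of 12.1 and 12.4 in cKO A and B and of 11.4 and 11.5 in Control A and B. Both cKO lenses were above both Control lenses (0.77 ± 0.15, limma adjusted p = 0.026). Its 2 probes gave 0.93 and 0.60 when tested alone, and the first of them was called. Hist1h1b (H1.5) lay close to background, at 4.82 and 4.87 in cKO and 5.30 and 4.70 in Control, and its groups overlapped.

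The values of the H2A genes are given by cluster. In the Hist2 cluster, on chromosome 3, all 4 genes were higher in cKO (median log2 fold change, 0.68), and 2 were called. In the Hist1 cluster, on chromosome 13, 0 of 10 H2A genes were called by limma (11.6% of all genes) and 0 had an unadjusted p under 0.05 (31.9% of all genes). Of these 10, 7 were lower in cKO, and the median was -0.08. That median lay 0.09 below the median of all genes in the main setting and 0.08 above it when arrays were scaled only by their median or not scaled, so its side is not settled. The Hist2 median lay between 0.67 and 0.83 above that of all genes under each of these scalings. No test of the difference between the clusters was run.

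Among the Hist1 genes of H2A, 3 were higher in cKO. Hist1h2af read 10.88 and 10.83 in cKO and 10.72 and 10.65 in Control (log2 fold change of 0.17). Hist1h2ai read 11.25 and 11.16 in cKO and 11.04 and 11.05 in Control (log2 fold change of 0.16). Their groups did not overlap, and neither change passed the limma test. Hist1h2ae read 4.63 and 4.86 in cKO and was detected in neither Control lens, and its cKO mean lay level with the lowest detected Control signals, so that no fold is given. The other 7 were lower in cKO or nearly level. Hist1h2ab read 4.58 and 4.76 in cKO and 4.89 and 4.64 in Control (log2 fold change of -0.09). Hist1h2ad read 10.35 and 9.99 in cKO and 10.45 and 10.03 in Control (log2 fold change of -0.06). Hist1h2ag read 6.49 and 6.45 in cKO and 6.55 and 6.40 in Control (log2 fold change of -0.01). In these 3 genes the groups overlapped. Hist1h2ah read 9.05 and 8.84 in cKO and 9.25 and 9.13 in Control (log2 fold change of -0.24). Hist1h2ak read 9.22 and 8.91 in cKO and 9.34 and 9.52 in Control (log2 fold change of -0.37). Hist1h2ao read 11.39 and 11.23 in cKO and 11.50 and 11.57 in Control (log2 fold change of -0.23). Here both cKO lenses were below both Control lenses, and 0 of the 3 had an unadjusted limma p under 0.05. Hist1h2an read 8.55 and 8.15 in cKO and 8.63 and 8.43 in Control (log2 fold change of -0.17). Its groups overlapped. In the Hist3 cluster, Hist3h2a read 4.61 and 4.58 in cKO and was detected in neither Control lens, and its cKO mean lay under the lowest detected Control signals, so that no fold is given.

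Hist2h2aa2 (H2ac19) had the largest change of the 56 histone genes tested. Its log2 signal was 12.4 and 12.9 in cKO A and B, and 11.5 and 11.4 in Control A and B. The groups did not overlap, and the level was 2.31-fold higher in cKO (log2 fold change of 1.21 ± 0.19, limma adjusted p = 0.014). Hist2h2aa1 (H2ac18), its near-identical neighbor, was at 8.77 and 9.04 in cKO and at 8.16 and 8.02 in Control (0.81 ± 0.16, limma adjusted p = 0.023). Of the 3 probes of Hist2h2aa1, those at bases 445 and 524 rose by 1.02 and 1.04, and the one at base 18, detected on no Control array, was at least 1.16-fold higher in cKO and was not called. The deposited table places the probe at base 445 on the minus strand of chromosome 3, which is that of Hist2h2aa2 in RefSeq, so that the values of these near-identical genes cannot be counted as separate measurements. Hist2h2aa2 and Hist2h2aa1 were called in 2 of the 4 fits that left out 1 lens each, more than any other called histone gene. Hist2h2ab of the same cluster was not called. Hist2h2ab read 6.90 and 7.49 in cKO and 6.94 and 6.68 in Control (log2 fold change of 0.39). Its groups overlapped.

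Hist2h2ac (H2ac20) stood just outside the threshold. Its log2 signal was 10.6 and 10.8 in cKO and 10.1 and 10.2 in Control, so that the groups did not overlap, and the log2 fold change was 0.55 ± 0.14 (limma adjusted p = 0.0496). Its probes disagreed. The probe at base 1, printed above, read 9.25 and 9.55 in cKO and 8.40 and 8.51 in Control and was called when tested alone (0.95 ± 0.17, limma adjusted p = 0.017). The probe at base 331 read 12.01 and 12.03 against 11.84 and 11.90, a change of 0.15.

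Probes of both clusters covered the start of the H2A coding sequence. Those of Hist2h2aa2 and Hist2h2ac rose by 1.21 and 0.95, and both were called. The Hist2h2aa1 probe at base 18 of its transcript, which is not among the 38 probes alike in sequence, was not called. The 4 probes of Hist1h2ad, Hist1h2ah and Hist1h2ak in the same window gave between -0.37 and -0.04, and 0 of 4 were called. Near the end of the coding sequence, 7 probes of 6 genes that are almost the same sequence gave between -0.39 and 0.35, and this window joined Hist2h2ac to 5 genes of Hist1. In the Hist1 cluster, Hist1h2af held probes that opposed each other. Its probe at base 246 read 12.5 and 12.6 in cKO and 11.9 and 11.7 in Control and was called (0.73 ± 0.16, limma adjusted p = 0.030). Its probe at base 342 read 9.30 and 9.03 against 9.54 and 9.57, a change of -0.39 that was not called, and the average of both probes was 0.17. The sequences of these 2 probes were the following.
Hist1h2af, probe at base 246: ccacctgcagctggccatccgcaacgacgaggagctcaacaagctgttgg
Hist1h2af, probe at base 342: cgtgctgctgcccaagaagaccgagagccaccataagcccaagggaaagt

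**Figure D2:**
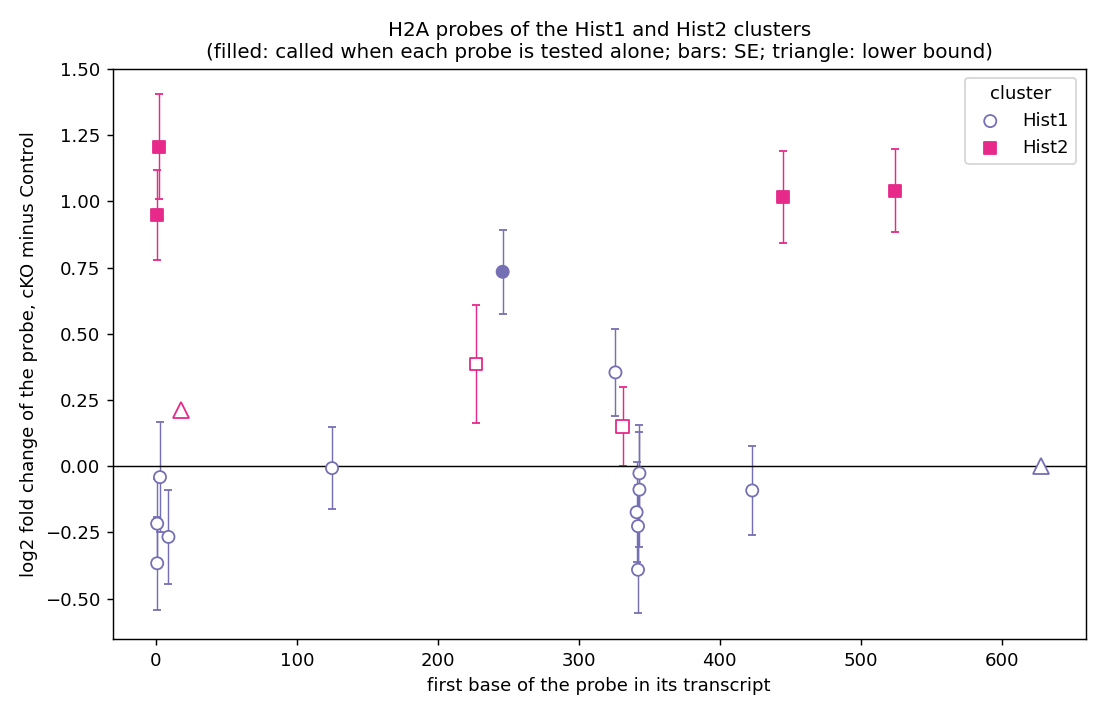
Log2 fold change (cKO minus Control) of each detected H2A probe of the Hist1 (circles) and Hist2 (squares) clusters against the first base of the probe in its transcript, with the SE of the limma fit. Filled points were called when each probe was tested alone, and triangles are lower bounds for probes detected on no Control array. At the start of the transcript the Hist2 probes of Hist2h2aa2 and Hist2h2ac lie at 1.21 and 0.95, the triangle is the lower bound of the Hist2h2aa1 probe (at least 1.16-fold), and the 4 Hist1 probes lie between -0.37 and -0.04.

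Of the 10 tested H2B genes of the Hist1 cluster, 9 were higher in cKO (median log2 fold change, 0.51), 9 had an unadjusted limma p under 0.05 (31.9% of all genes), and 2 were called. Both counts of 9 include Hist1h2bg, which was detected in neither Control lens and was at least 1.05-fold higher in cKO. Hist1h2bf (H2bc7) read 11.8 and 12.1 in cKO against 11.3 and 11.2 in Control (0.69 ± 0.16, limma adjusted p = 0.036). Hist1h2bc (H2bc4) read 10.86 and 11.02 against 10.35 and 10.19 (0.67 ± 0.15, limma adjusted p = 0.032). In both genes each cKO lens was above each Control lens. The other Hist1 genes of H2B that were detected in both groups were not called. Hist1h2be read 10.01 and 10.09 in cKO and 9.70 and 9.47 in Control (log2 fold change of 0.46). Hist1h2bh read 11.03 and 11.29 in cKO and 10.66 and 10.62 in Control (log2 fold change of 0.52). Hist1h2bj read 11.45 and 11.76 in cKO and 11.13 and 11.12 in Control (log2 fold change of 0.48). In these genes too, both cKO lenses were above both Control lenses. Hist1h2bk read 9.92 and 10.34 in cKO and 9.47 and 9.67 in Control (log2 fold change of 0.56). Hist1h2bm read 10.13 and 10.23 in cKO and 9.76 and 9.61 in Control (log2 fold change of 0.49). Hist1h2bn read 9.19 and 9.63 in cKO and 8.96 and 8.92 in Control (log2 fold change of 0.47). The groups did not overlap here either. The 4 probes over the start of H2B shown above, of Hist1h2bf, Hist1h2bh, Hist1h2bk and Hist1h2bn, gave between 0.47 and 0.69, and because their sequences are so alike they cannot be counted as separate measurements of 4 genes.

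Hist1h2bg had an adjusted p of 0.044 in the limma fit but fell short of the fold threshold. It was detected in neither Control lens and read 4.73 and 4.90 in cKO, at least 1.05-fold higher. Hist1h2bb had the lowest log2 fold change of the tested H2B genes (-0.33 ± 0.15, limma adjusted p = 0.17), at 4.78 and 4.87 in cKO and 5.27 and 5.05 in Control. In the Hist2 cluster, the probe of Hist2h2be at base 166 rose by 0.62 when tested alone (limma adjusted p = 0.047), and its probe at base 2542 gave -0.32. Hist2h2be read 6.31 and 6.49 in cKO and 6.28 and 6.23 in Control (log2 fold change of 0.15). The groups of the gene did not overlap. On chromosome 11, the Hist3 genes of H2B had groups that overlapped. Hist3h2ba read 4.96 and 5.15 in cKO and 5.14 and 4.92 in Control (log2 fold change of 0.02). Hist3h2bb read 4.68 and 4.76 in cKO and 4.68 and 4.96 in Control (log2 fold change of -0.10).

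All 7 tested H3 genes of the replication-dependent class were higher in cKO, by 0.29 to 0.70 on the log2 scale. Hist1h3e (H3c6) read 8.08 and 8.36 in cKO and 7.61 and 7.43 in Control, with no overlap, and was called (0.70 ± 0.16, limma adjusted p = 0.037). Hist1h3f read 6.32 and 6.28 against 5.90 and 5.39 (0.66 ± 0.19, limma adjusted p = 0.065), and it exceeded the fold threshold without passing the test. The other 5 were not called. Hist1h3a read 5.93 and 6.09 in cKO and 5.71 and 5.73 in Control (log2 fold change of 0.29). Hist1h3d read 7.46 and 7.68 in cKO and 7.17 and 6.98 in Control (log2 fold change of 0.49). Hist1h3h read 7.27 and 7.32 in cKO and 6.85 and 6.98 in Control (log2 fold change of 0.38). Both cKO lenses were above both Control lenses in these 3. Hist2h3b read 9.0 and 9.42 in cKO and 8.58 and 9.11 in Control (log2 fold change of 0.36). Hist2h3c1 read 6.85 and 7.05 in cKO and 6.55 and 6.73 in Control (log2 fold change of 0.31). The groups overlapped for Hist2h3b and not for Hist2h3c1. Probes of Hist1h3d and Hist1h3e matched at 45 of 46 aligned bases and gave 0.49 and 0.70. The Hist1h3f probe at base 804 matched them at 30 of 32 and 35 of 36. Probes of Hist1h3a and Hist1h3h matched at 43 of 45, and those of Hist1h3h and Hist2h3b at 42 of 44. Those of Hist2h3b and Hist2h3c1 matched at 35 of 35. The rises of the 7 genes therefore cannot be counted as 7 separate measurements.

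Of the 9 tested H4 genes, 8 were higher in cKO and 2 were called. Hist1h4h (H4c8) read 10.2 and 10.5 in cKO against 9.43 and 9.59 in Control (0.82 ± 0.16, limma adjusted p = 0.026). Hist1h4a (H4c1) read 10.1 and 10.5 against 9.74 and 9.44 (0.72 ± 0.18, limma adjusted p = 0.046). The groups did not overlap in either gene. Hist1h4i and Hist1h4j missed the limma test, with an adjusted p of 0.055 and 0.058. Hist1h4i read 8.64 and 8.78 in cKO and 8.25 and 8.11 in Control (log2 fold change of 0.53). Hist1h4j read 9.19 and 9.49 in cKO and 8.84 and 8.67 in Control (log2 fold change of 0.59). In both, the cKO lenses were above the Control lenses. Hist1h4d read 5.05 and 5.15 in cKO and 4.88 and 4.74 in Control (log2 fold change of 0.29). Hist1h4m read 6.08 and 6.34 in cKO and 5.74 and 6.18 in Control (log2 fold change of 0.25). The groups overlapped for Hist1h4m and not for Hist1h4d. Of the 3 probes of Hist1h4f, those at bases 16 and 21 were detected on no Control array, and the one at base 1 read 6.15 and 6.25 in cKO and 6.06 and 5.58 in Control (log2 fold change of 0.38, not called). Hist1h4k read 5.66 and 6.09 in cKO and 5.29 and 5.24 in Control. Its log2 fold change was 0.61 ± 0.18 (limma adjusted p = 0.063), and its 2 probes, which share 48 of 50 bases, gave 0.92 and 0.31, of which the first was called when tested alone. The Hist1h4m probe that shares 47 bases with them gave 0.46. The exception was Hist1h4c, which read 5.60 and 5.82 in cKO and 6.24 and 6.25 in Control. Both its cKO lenses were below both Control lenses (-0.54 ± 0.15, limma adjusted p = 0.056). Its only probe, at base 23, matched the Hist1h4f probes at bases 16 and 21 at 40 of 43 and 44 of 48 bases. Probes of Hist1h4c, Hist1h4f, Hist1h4i, Hist1h4k and Hist1h4m fell into the same group of like sequence. These genes therefore cannot be counted as separate measurements.

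**Figure D3:**
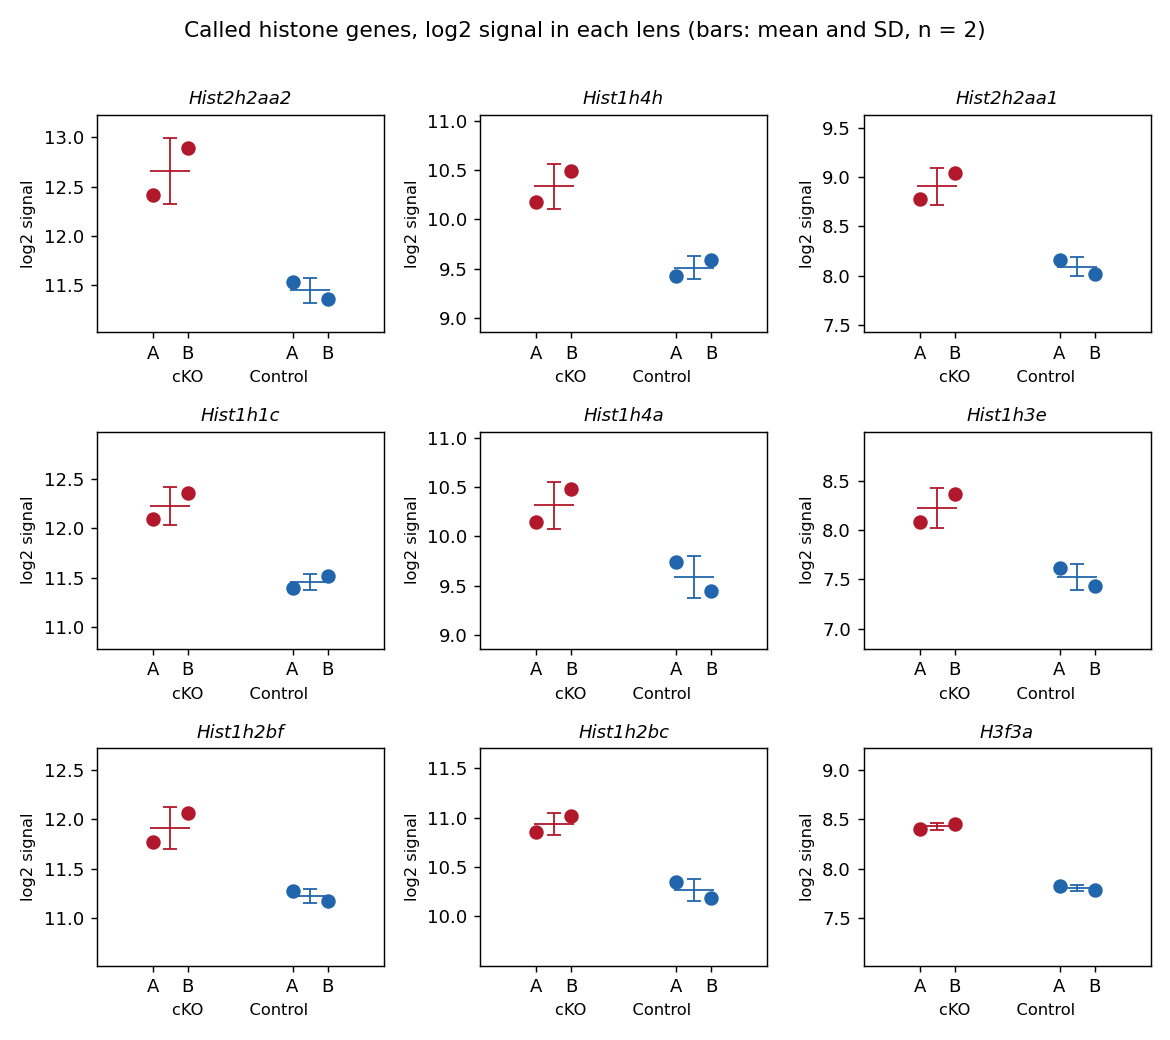
Log2 signal of the 9 called histone genes in each lens (red, cKO A and B; blue, Control A and B), with the mean and SD of each group (n = 2). Each panel spans the same range of log2 units, and in each panel both cKO lenses lie above both Control lenses.

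Replacement histones had a median log2 fold change of -0.22, with 3 of 10 higher in cKO and 7 lower. The groups did not overlap for 8 of 10 (3 with cKO higher and 5 with cKO lower, where 29.7% of all genes had groups apart with cKO lower). When arrays were set to the same median over all probes, or not scaled, the median of the replacement class was 0.56 or 0.59 and that of all genes 0.53 or 0.57, so that the class lay 0.03 above all genes in place of 0.23 below.

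H3f3a and H3f3b both encode the variant H3.3, which is deposited outside S phase. H3f3a read 8.40 and 8.45 in cKO and 7.83 and 7.78 in Control, with no overlap, and was called (0.62 ± 0.13, limma adjusted p = 0.031). This rested on 1 of its 2 probes, and with that probe at its bound the average was 0.49, under the fold threshold. The probe at base 19 was detected on both cKO arrays but on no Control array, at least 1.5-fold higher in cKO, and was called alone, whereas the probe at base 286 read 11.5 and 11.6 against 11.2 and 11.1 (0.40 ± 0.15, limma adjusted p = 0.12). H3f3b read 8.22 and 8.09 against 8.46 and 8.31, with no overlap (-0.22 ± 0.14, limma adjusted p = 0.33).

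Among the H2A variants, 0 of 6 were called by limma (11.6% of all genes), and 2 had an unadjusted p under 0.05 (31.9% of all genes). H2afz and H2afv encode H2A.Z, found at promoters. H2afz read 9.13 and 9.40 in cKO and 9.30 and 9.26 in Control, with overlap and a change of -0.02, and H2afv read 8.44 and 8.46 against 8.62 and 8.72, with no overlap (-0.22 ± 0.14, limma adjusted p = 0.32). H2afx, whose protein H2AX is phosphorylated at DNA breaks and whose transcripts occur in both stem-loop and polyadenylated form, read 7.75 and 7.74 against 7.18 and 7.54 (0.39 ± 0.16, limma adjusted p = 0.16). H2afj read 5.64 and 5.66 against 5.30 and 5.26, with no overlap (0.37 ± 0.13, limma adjusted p = 0.11), from 3 probes, of which the one at base 1170 was detected on no Control array and the others gave -0.08 and 0.62.

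The macroH2A genes H2afy and H2afy2 encode large H2A variants known from the inactive X chromosome and other silent chromatin. H2afy2 read 5.47 and 5.38 in cKO and 5.90 and 6.09 in Control. It passed the limma test (adjusted p = 0.047), but its log2 fold change of -0.57 fell short of the fold threshold. Its probe at base 1358 read 4.82 and 4.81 against 5.65 and 6.27 and was called alone (-1.15 ± 0.22, limma adjusted p = 0.021), whereas its probe at base 181 gave -0.003. H2afy read 7.51 and 6.99 against 8.01 and 7.33, so that the groups overlapped (-0.42 ± 0.27, limma adjusted p = 0.32). Since Xist differed between the groups, a change that goes with sex and one that goes with genotype cannot be told apart for these genes or any other.

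The replacement linker histones were both lower in cKO. H1f0, which encodes H1.0, known to accumulate in cells that stop dividing, read 5.52 and 5.10 in cKO and 5.91 and 6.06 in Control. Each cKO lens was below each Control lens, and the log2 fold change was -0.68 ± 0.18 (limma adjusted p = 0.053), and it was called as reduced in 4 of the alternative settings. H1fx (H1.10) read 7.52 and 7.31 against 7.75 and 7.80, also with no overlap (-0.36 ± 0.15, limma adjusted p = 0.14). Their median lay 0.53 below that of all genes in the main setting and 0.39 below it with arrays scaled by the median or not scaled.

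The distance between the class means was larger in both cKO lenses than in either Control lens. The mean log2 signal of the 46 replication-dependent genes was 8.11 and 8.26 in cKO A and B and 7.90 and 7.83 in Control A and B. That of the 10 replacement genes was 7.36 and 7.26 in cKO and 7.42 and 7.42 in Control. The replacement mean minus the replication-dependent mean was therefore -0.75 and -1.0 in the cKO lenses and -0.47 and -0.42 in the Control lenses, with no overlap, and the group means were -0.88 ± 0.18 and -0.45 ± 0.04 (SD, n = 2). The difference between the groups was -0.43. Under the alternatives that change the signals or the lenses used (each probe alone was not computed) it was below 0, from -0.59 without cKO A to -0.34 with no detection filter, and a factor common to all probes of an array cancels in it, so that the scalings by the median and no scaling gave 1 value by construction. With 2 lenses in each group no test was made of this value. Whether mRNAs with and without a poly(A) tail were captured alike on the arrays was not tested either.

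**Figure D4:**
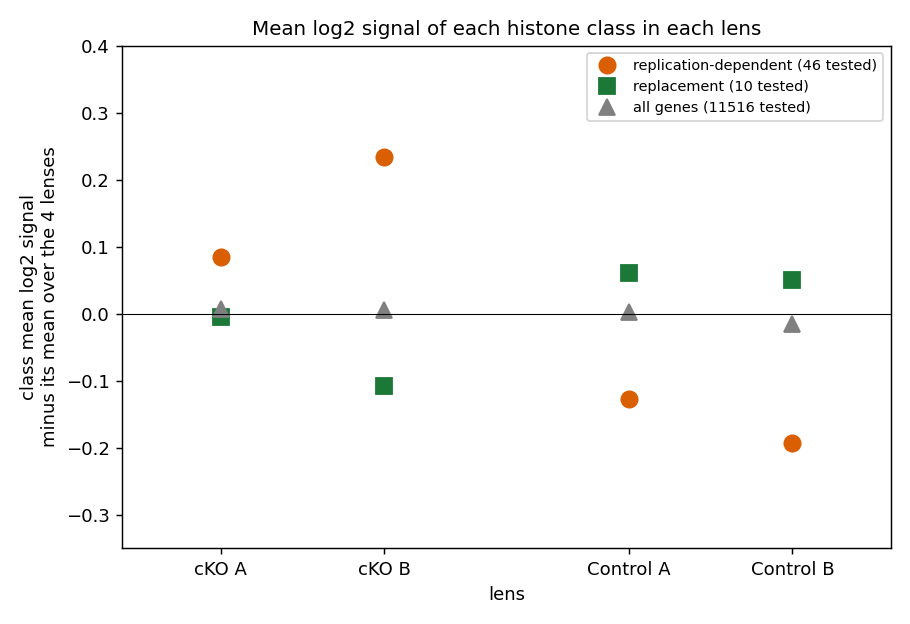
Mean log2 signal of the replication-dependent, replacement and all tested genes in each lens, each minus its own mean over the 4 lenses. Replication-dependent histones stand above 0 in cKO A and B and below 0 in both Control lenses, replacement histones are lowest in cKO B, and all genes stay near 0.

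The genes that act on histone mRNA and protein were tested in the same fit. Of 21 genes for histone mRNA processing and decay, 14 were tested, 12 of which were lower in cKO (median log2 fold change, -0.15), and 1 was called, a share of 7.14% against 11.6% of all genes. The called gene was Cpsf2, a subunit of the complex that cleaves histone pre-mRNA, at 4.71 and 4.88 in cKO and 5.59 and 5.89 in Control (-0.95 ± 0.16, limma adjusted p = 0.018). Slbp, which encodes the stem-loop-binding protein, was detected on 0 of 4 arrays. Of 30 genes for histone chaperones and deposition, 26 were tested with a median of -0.03, and 3 were called, a share of 11.5% and so close to that of all genes. Nasp, a chaperone that holds H3 and H4 before deposition, read 7.23 and 6.98 against 8.24 and 7.93 (-0.98 ± 0.17, limma adjusted p = 0.018). Rbbp4, a histone-binding subunit of chromatin assembly complexes, read 6.00 and 5.74 against 6.47 and 6.70 (-0.71 ± 0.16, limma adjusted p = 0.037). Npm1, a nucleolar histone chaperone, rose from 10.9 and 10.6 to 11.7 and 11.9 (1.01 ± 0.16, limma adjusted p = 0.015). Nasp and Npm1 were called in 2 of the 4 fits that left out 1 lens each, and Cpsf2 and Rbbp4 in 1.

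Of 26 genes for S phase and DNA replication, 21 were tested, 0 were called by limma (11.6% of all genes), 1 had an unadjusted p under 0.05 (31.9% of all genes), and the median log2 fold change was -0.01 with 10 higher and 11 lower. The change of largest size in this list, chosen after its value was seen, was that of Ccne1, the cyclin E1 gene, which was detected on no Control array and was at least 1.32-fold higher in cKO (limma adjusted p = 0.059). The lens epithelium markers, from the part of the lens in which cells divide, were all lower in cKO (3 of 3 tested). Foxe3, a transcription factor of that epithelium, was called (-0.79 ± 0.14, limma adjusted p = 0.018), and the summed intensity of the list was 780 and 698 in cKO and 1122 and 1192 in Control in the deposited normalized table, but 1053 and 990 against 984 and 811 in the unnormalized one. The 6 fiber markers were lower in cKO as well, with a median of -0.17 and 0 called (2 at an unadjusted limma p under 0.05), and their summed intensity was 160488 and 154319 in cKO and 268178 and 274627 in Control in the normalized table, but 176128 and 173868 against 184070 and 142493 in the unnormalized one. These sums therefore depend on the scaling between arrays. Blood markers overlapped between the groups, and 1 of 3 macrophage markers tested was called, Cd68, which was detected on no Control array and was at least 1.26-fold higher in cKO (limma adjusted p = 0.038), whereas Csf1r and Aif1 gave -0.11 and -0.06. Of the vessel markers, 4 of 4 were tested and 0 called by limma (2 at an unadjusted p under 0.05), with Kdr at -0.59 and Cdh5 at 0.58 and no overlap of the groups in either. Of the 4 pigment cell markers only Pmel was tested, at -0.40 with no overlap and no call. In whole lenses, fewer cells of a type and less RNA per cell cannot be told apart, and the part of these markers in the histone values was not tested.

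**Figure D5:**
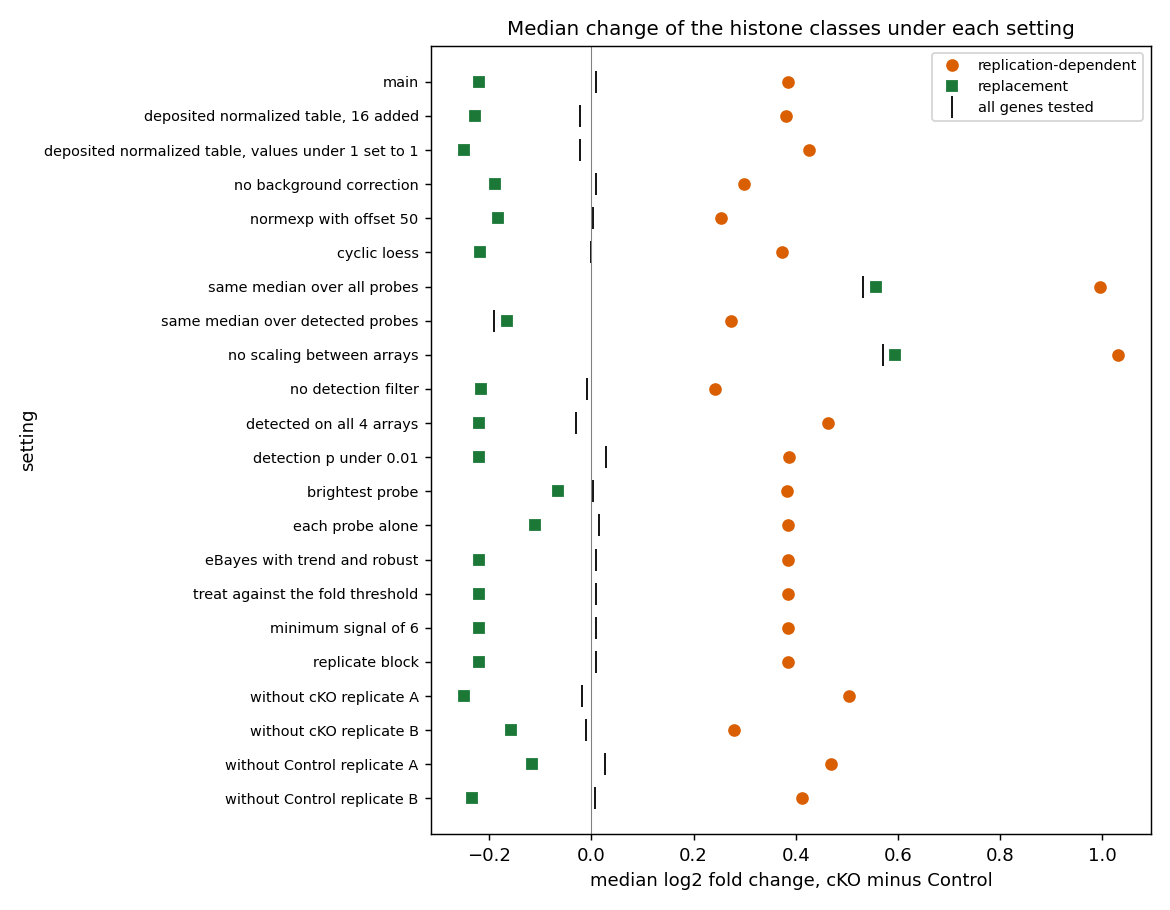
Median log2 fold change of the replication-dependent (circles) and replacement (squares) histones and of all tested genes (black ticks) under each setting. The replication-dependent median lies above that of all genes in each setting, and the replacement median lies below it except where arrays were set to the same median or not scaled.

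The promoters of the elevated genes were read from RefSeq (GRCm38.p6), in windows of 250 bases before and 50 bases after each annotated start. Windows were found for 62 of the 70 histone genes. The CCAAT box, searched on both strands as CCAAT, stood in 42 of 50 replication-dependent windows (84%), 6 of 9 replacement windows (66.7%) and 41.1% of the windows of all genes. The TATA box, searched on both strands as TATAAA, stood in 29 of 50 (58%), 1 of 9 (11.1%) and 15.7%. Among called replication-dependent genes with a window, 6 of 7 held CCAAT and 3 of 7 TATAAA, against 29 and 22 of the 34 that were tested and not called. The octamer ATGCAAAT, searched on both strands, stood in 12 of 50 replication-dependent windows (24%) and in 1.97% of all, and in 0 of the 7 called against 10 of the 34 tested and not called. The motif counts of called and other genes were not compared within families, and no test was made of them. A match of letters is a description of the window and shows no binding.

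Hist2h2aa1 and Hist2h2aa2 lie close to each other on opposite strands, and their windows matched at 249 of 260 aligned bases. The stretch of 120 bases just before the annotated start of Hist2h2aa2 and the stretch of Hist2h2aa1 aligned to it are shown because they are identical, with the CCAAT box, here on the opposite strand, in capitals.
Hist2h2aa1 (H2ac18), chr3:96245337-96245456, plus strand: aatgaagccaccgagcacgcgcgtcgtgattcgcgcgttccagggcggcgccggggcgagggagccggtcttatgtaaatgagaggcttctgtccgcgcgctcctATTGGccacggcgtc
Hist2h2aa2 (H2ac19), chr3:96240375-96240494, minus strand: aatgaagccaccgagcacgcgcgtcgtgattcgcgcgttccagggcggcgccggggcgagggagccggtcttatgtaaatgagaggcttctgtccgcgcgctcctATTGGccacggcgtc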

How the data were processed

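RNA of 1 lens per array (4 arrays) was hybridised to Illumina MouseWG-6 v2.0 BeadChips. The authors deposited 2 tables of probe signal intensity, unnormalized and rank-invariant normalized, and the deposited normalized table holds, per probe and array, the p-value of detection against negative control beads. Of 45281 probes, 18 with shifted cells were left out, none of them a histone probe.

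Unnormalized intensity was corrected with neqc of limma (version 3.58.1, R 4.3.3; offset 16), then quantile normalized and log2-transformed. The fit used 16262 probes whose detection p-value was under 0.05 on at least 2 arrays, averaged by gene (11516 genes). Groups were compared with lmFit and eBayes, with two-sided p-values adjusted by Benjamini-Hochberg across the 11516 genes. The study's methods name edgeR, a count model, which was not applied because the values are intensities. For a gene or probe detected on no array of a group, the fold is a bound against the lowest detected signal. Tables were read with Python 3.11.15.

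All 107 histone probes were matched to RefSeq genes, which gave the newer names in parentheses. Histone genes with a detected probe were named with values, and from the other lists the called genes. The members, lists and tests were chosen with earlier results of these data known. On simulated data for cKO against Control (11516 genes, 200 changed, 5 simulations), the fit called 59.4% of genes changed by 1 on the log2 scale, 77.6% by 1.5 and 77.3% by 2.5. Unchanged genes made up 4.42% of the calls. The simulated noise was independent between genes and held no difference in sex or array brightness, so these shares need not hold for the real arrays.

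The replicate letters A and B do not state a shared litter or day, and A-minus-B differences correlated at r = -0.011 between groups across genes. The study's methods name each lens a biological replicate but do not say that the lenses of a group came from separate mice. The limma p-values use a variance that combines the spread between these lenses for a gene with that of all genes. The small number of arrays sets the precision. Alternatives changed the input table, background correction, scaling between arrays, detection filter, rule for several probes, variance model, fold and signal thresholds, the block and the lenses used.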

Additional observations from a re-analysis of the deposited data

How the results depend on the processing

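The median log2 fold change of replication-dependent histones was above 0, and the difference between the classes below 0, under the alternatives that change signals, probes or lenses (the difference was not computed with each probe alone). The variance model, treat, the minimum signal and the block cannot change either value. The number of histone genes called is given with the share of all genes called in the same setting, where the main setting gave 9 of 56 and 11.6%. It was 4 (10.3%) with the deposited normalized table plus 16 and 0 (0.0608%) with that table floored at 1 (24 at an unadjusted limma p under 0.05). It was 39 (47%) when all probes of each array were given the same median, 20 (23.4%) with the same median over detected probes (13 elevated and 7 reduced) and 40 (50.3%) with no scaling. It was 1 (0.718%) with no detection filter, 15 of 83 probes (11.5% of all probes) with each probe alone and 0 (0.747%) with treat (1 unadjusted). The other settings that kept all 4 lenses gave 8 to 13 histone genes, with 6.85% to 15.2% of all genes called. Among these, 1 gene was called as reduced with cyclic loess (H2afy2) and 1 with detection on all 4 arrays, with a detection p under 0.01 and with the replicate block (H1f0 in each). H2afy2 was also called as reduced in the fit without Control A. Under the floor, same median over all probes, same median over detected probes, no scaling, no detection filter and treat, calls over all genes went from 1341 to 7, 5417, 2690, 5788, 207 and 86. They were 789 with normexp at an offset of 50 and 879 with a minimum signal of 6. Of the 5417, 5273 were elevated; of the 2690, 667; of the 5788, 5655.

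Leaving out 1 lens at a time gave 0 to 7 histone genes called and 163 to 1364 genes over all, a replication-dependent median of 0.279 to 0.504, a replacement median of -0.249 to -0.116 and a class difference of -0.591 to -0.346. Of the 9 called genes, Hist1h2bf and Hist1h3e were called in 0 of these 4 fits.

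The replication-dependent median (0.384) was 0.299 with no background correction, 0.253 with normexp at an offset of 50, 0.995, 0.273 and 1.03 with the same median over all probes, over detected probes and no scaling, and 0.242 with no detection filter. The replacement median (-0.219) turned to 0.557 with the same median over all probes and to 0.595 with no scaling, and was -0.164 with the same median over detected probes, -0.0643 with the brightest probe and -0.11 with each probe alone. Those 3 scalings moved the median of all genes to 0.53, -0.19 and 0.57. With the same median over all probes and with no scaling, the log2 fold change turned to a called increase for H2afv (0.604 and 0.642), H2afz (0.807 and 0.845), Hist1h2ad (0.727 and 0.765), Hist1h2ag (0.679 and 0.717) and Hist1h2an (0.644 and 0.682), and with no scaling for Hist1h2ah (0.614). The cause was not tested.

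With the replicate letter as a block, 13 histone genes were called (12 elevated and 1 reduced) and 1685 genes over all (14.6%). The files give no slide, so slide as a block was not run. Genes close to background are limited by signal, and averages over probes include probes detected on no Control array.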
